A study of Mus musculus with 32 samples.

Results

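The experiment asked what happened to the expression of established MYC tumour cells when the oncogene HRAS was added to them, and 8 of the 32 arrays of the series bear on it. The tumour cells studied were the 2 MYC then HRAS cultures, grown from secondary brain tumours that arose after HRAS was overexpressed in sphere cells of a primitive neuroectodermal tumour (PNET) driven by MYC. They were set against 6 MYC cultures, grown from PNETs that formed after MYC-overexpressing cells had been transplanted into the brain. A group of 7 HRAS+MYC cultures, whose tumours resembled atypical teratoid/rhabdoid tumour (AT/RT) and arose when both oncogenes were given together, served for 1 further comparison. Members were chosen by the array titles alone, but they and the gene lists were fixed with earlier results of these data known. The shares of list members given below are therefore descriptions and not tests of the lists. All groups started from neurosphere cells without p53, taken after birth from the wall of the lateral ventricle in strain B6;129-Trp53tm1Brd, so the loss of p53 was shared by every culture. From each tumour, cells positive for the transgene were sorted by flow cytometry and cultured as neurospheres, and RNA was taken with the AllPrep kit. The labels do not say which PNET culture received HRAS, what the secondary tumours looked like under the microscope, or whether each replicate had its own tumour or animal. The p-values therefore measure the spread between arrays, which may be technical.

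HRAS is a small GTPase at the inner face of the cell membrane that passes growth factor signals to the RAF, MEK and ERK kinases. Active ERK induces AP-1 and ETS transcription factors, ligands of the EGF receptor and proteases, and also the phosphatases and Sprouty proteins that damp the pathway. The oncoprotein MYC switches on genes for cell growth and ribosome production, and PNETs are embryonal brain tumours with features of immature neurons.

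Levels are log2 values of the robust multi-array average (RMA). The values used here carry no detection calls, so a low level may be background, and a difference against it is one of RMA values and not a bound on the fold. Over the 8 arrays the median over genes lay between 6.20 and 6.43. No probe set was assigned to Hras alone, so the added HRAS was not analysed here, and the deposited values do not check that label. Of the 4 neural stem markers measured, Sox2 was 10.93 and 11.31 and Nes 9.43 and 9.52 in the MYC then HRAS arrays. Msi1 was 6.03 and 5.77 there, below every MYC array (7.37 to 8.93), and Fabp7 was 10.89 and 4.52. Within the MYC group, replicates 4 and 5 differed from the 4 others, with Sox2 at 4.85 and 6.62, Olig2 at 5.02 and 5.17 and Neurod1, a neuronal differentiation factor, at 10.55 and 10.83. In the MYC then HRAS arrays the microglial marker Aif1 (4.49 and 4.26) and the endothelial marker Pecam1 (5.10 and 5.01) were below those medians. Of the fibroblast markers, the collagen Col3a1 was above them (8.60 and 8.60). Dcn (4.01 and 4.39) and Lum (2.72 and 2.95) were below them, and Col1a1 was 6.54 and 6.36. Fewer cells of a type and less RNA per cell cannot be told apart in such bulk cultures.

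The expression profile of the MYC then HRAS cultures lay far from that of the MYC cultures and close to that of the HRAS+MYC cultures. On the line from the MYC mean (0%) to the HRAS+MYC mean (100%) over all genes, the MYC then HRAS arrays stood at 86.6% and 97.3%, which gives 92.0% ± 7.56 (SD, n = 2). The HRAS+MYC arrays lay between 94.0% and 103.0%, and the MYC arrays between -1.12% and 14.3%. Replicate 2 thus fell inside the range of the HRAS+MYC arrays and replicate 1 below it, while no MYC array came near either. The SD of gene-by-gene differences was 0.43 log2 units between both MYC then HRAS arrays. It had a median of 0.44 over the 14 pairs that matched such an array with an HRAS+MYC array and 0.93 over the 12 pairs with a MYC array. Among the 15 pairs of MYC arrays the median was 0.67, against 0.42 among the 21 pairs of HRAS+MYC arrays. MYC replicates 1, 2 and 3 differed from each other by 0.31 to 0.43, and all other MYC pairs by more.

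**Figure D1:**
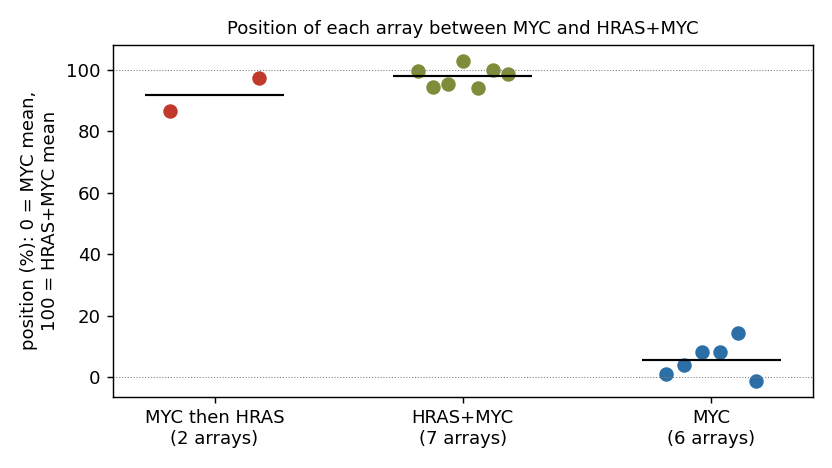
Position of every array on the line between the MYC mean (0%) and the HRAS+MYC mean (100%), with each array of those 2 groups left out of its own mean. Points are arrays and bars are group means. The MYC then HRAS arrays, at 86.6% and 97.3%, sit beside the 7 HRAS+MYC arrays and apart from the 6 MYC arrays.

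Against MYC, 4074 of 19938 genes passed the test (adjusted p under 0.05, limma with Benjamini-Hochberg adjustment), which is 20.4% of genes. In the MYC then HRAS arrays 1959 were higher (9.83%) and 2115 were lower (10.6%). The counts of list members below are to be read beside these shares. Changes of 2 log2 units or more, a fold of 4, were seen in 442 higher and 270 lower genes, so the large changes were more often rises. The median difference over all genes was 0.03. In 3599 of the genes that passed, no MYC array overlapped the MYC then HRAS arrays. Over all genes, the groups did not overlap in 14.9% with higher and 13.1% with lower MYC then HRAS arrays. These counts rest on few arrays: without MYC then HRAS replicate 1, 1353 genes were higher and 1190 lower, and without replicate 2, 966 were higher and 934 lower. Of the genes that passed, 48.1% were higher, a share that became 60.1% (2505 higher and 1663 lower) when each array was centred on its median. Of 150 named genes that passed against MYC, 97 kept the call whichever array was left out. For most of the other genes named below, the value without an array that decided the call is given, and more than 1 array could decide it. Nras, Dusp6, Spry1, Spry2, Fos, Jun, Egr1, Fosl2, Junb, Egfr, Zeb1, Elavl4, Gli1, Aldoa and Cdkn1b were picked from their lists after their values were seen.

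**Figure D2:**
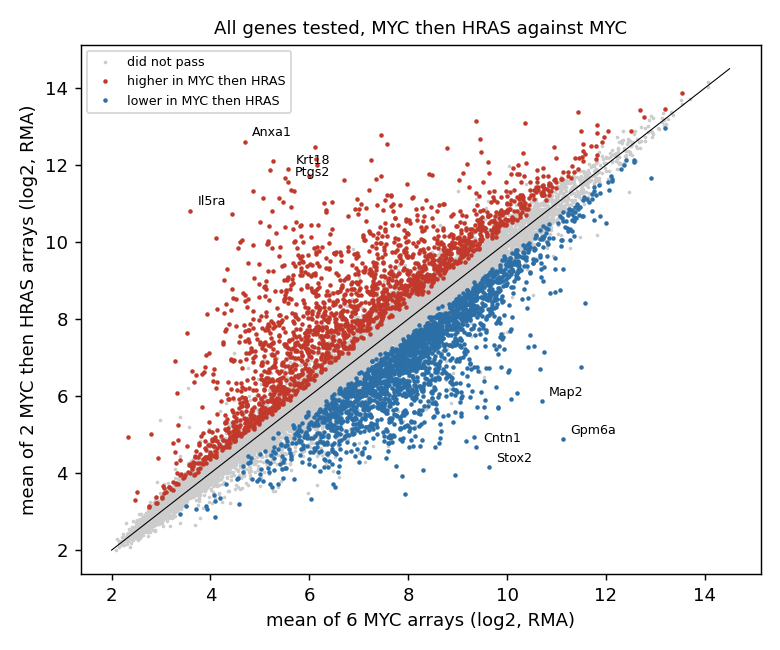
Mean log2 level of each of 19938 genes in the 2 MYC then HRAS arrays (vertical axis) against its mean in the 6 MYC arrays (horizontal axis). Red genes passed as higher and blue genes as lower in MYC then HRAS, grey genes did not pass, and the line marks equal levels. Of the labelled genes, Anxa1 and Il5ra lie farthest above the line, Gpm6a and Stox2 farthest below it.

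The 12 largest rises against MYC included 3 annexins and 2 keratins. For the 6 MYC arrays the lowest, median and highest levels are given throughout. Anxa1, an annexin that binds membrane phospholipids in the presence of calcium, was 12.51 and 12.71 in the MYC then HRAS arrays, against 4.14, 4.52 and 5.92 in MYC arrays. It was 7.92 ± 0.50 log2 units higher (SE of the fit, adjusted p 3.76e-12). Il5ra, a chain of a cytokine receptor best known from eosinophils, was 10.70 and 10.93 in MYC then HRAS arrays, against 3.36, 3.57 and 3.80 in MYC arrays, a rise of 7.23 ± 0.17 (adjusted p 2.57e-22). For each of them the lowest MYC then HRAS array stood more than 4 log2 units above the highest MYC array. Plet1, a surface protein known from placenta and epithelia, rose by 6.67 ± 0.70 (adjusted p 7.21e-08), the sodium-proton exchanger Slc9a2 by 6.47 ± 0.25 (adjusted p 1.82e-16) and the tetraspan membrane protein Tm4sf1 by 6.14 ± 0.26 (adjusted p 6.64e-16). Pla2g7, a secreted enzyme that inactivates platelet-activating factor, was 10.91 and 11.38 in MYC then HRAS arrays, against 4.26, 4.67 and 7.60 in MYC arrays. The rest of the 12 largest rises were in S100a6, Anxa2, Krt18, Anxa8, Krt8 and Dynap, all by at least 6.00 log2 units and none overlapping, as the rule that named them required.

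Promoters of several of the most raised genes hold TGANTCA, in which N is any base. This motif is wider than the AP-1 site TGA(C/G)TCA, so a match need not be an AP-1 site. The motif TGANTCA, which reads the same on both strands, was searched in RefSeq promoter windows of GRCm38.p6, 250 bases before to 50 after each start site. It occurred in 1262 of 15614 tested genes with a window (8.08%). The share was 10.7% (165 of 1546) among genes higher in MYC then HRAS and 16.5% (59 of 358) among those higher by 2 or more. Among lower genes it was 5.29% (90 of 1700), and among those lower by 2 or more it was 6.88% (15 of 218). These shares take all forms of the motif together. They were not tested and are a description of letters, not of binding. For 4 of the most raised named genes with a match, the 160 bases before the start site are shown. The bases read 5′ to 3′ on the gene's strand, with the match in capitals, so that its place and flanks can be read. These 4 genes were picked for holding the match, and they need not be the 4 most raised genes that hold it. The Plet1 match, TGATTCA, is not of the form TGA(C/G)TCA. The matches begin 99 bases before the start site in Il5ra (chr6:106749038-106749197, minus strand), 144 in Plet1 (chr9:50494365-50494524, plus strand), 95 in Anxa2 (chr9:69453523-69453682, plus strand) and 25 in Adh7 (chr3:138217613-138217772, plus strand).
Il5ra: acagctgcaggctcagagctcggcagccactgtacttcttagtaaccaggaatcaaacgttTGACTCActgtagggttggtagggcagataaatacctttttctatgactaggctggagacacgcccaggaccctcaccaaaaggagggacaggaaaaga
Plet1: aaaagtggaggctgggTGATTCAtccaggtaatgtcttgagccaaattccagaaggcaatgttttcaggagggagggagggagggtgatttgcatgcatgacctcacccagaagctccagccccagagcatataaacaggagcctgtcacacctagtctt
Anxa2: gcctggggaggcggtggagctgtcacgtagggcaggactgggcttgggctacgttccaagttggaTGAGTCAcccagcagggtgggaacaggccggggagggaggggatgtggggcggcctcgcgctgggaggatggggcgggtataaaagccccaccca
Adh7: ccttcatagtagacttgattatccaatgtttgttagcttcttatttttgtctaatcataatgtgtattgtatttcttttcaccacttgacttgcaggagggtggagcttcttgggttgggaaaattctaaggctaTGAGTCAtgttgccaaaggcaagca

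Of the 12 largest falls against MYC, 2 were on the neuronal list, Gpm6a and Map2. Gpm6a, a glycoprotein of the neuronal membrane that promotes neurite growth, was 5.16 and 4.59 in MYC then HRAS arrays, against 10.01, 11.21 and 12.05 in MYC arrays. It fell by 6.26 ± 0.95 (adjusted p 1.85e-05). Map2, a microtubule protein of dendrites, was 6.36 and 5.38 in MYC then HRAS arrays, against 9.55, 11.05 and 11.39 in MYC arrays, a fall of 4.83 ± 0.76 (adjusted p 2.78e-05). Neither gene overlapped between the groups, as the rule that named the 12 largest falls required. Stox2, which encodes a protein with a winged-helix domain, fell by 5.46 ± 0.66, the leucine-rich repeat protein Lrrn1 by 4.99 ± 0.73 and the axonal adhesion molecule Cntn1 by 4.69 ± 0.78 (largest adjusted p 6.19e-05). Sncaip, a partner of alpha-synuclein, fell by 4.38 ± 0.64, the imprinted neuronal gene Ndn by 4.34 ± 0.87 and the inhibitory G protein subunit Gnai1 by 4.15 ± 0.67. Satb1, a chromatin organiser, was 5.84 and 5.06 in MYC then HRAS arrays, against 9.25, 9.57 and 9.88 in MYC arrays, and its MYC arrays were the most alike of these genes.

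Components of the RAS-MAPK cascade moved both ways. Of 22 measured members 5 rose and 3 fell (9.83% and 10.6% over all genes), with a median of 0.13 beside 0.03 over all genes. Map2k1, which encodes the kinase that phosphorylates ERK, was 10.84 and 10.76 in MYC then HRAS arrays, against 9.18, 9.49 and 9.67 in MYC arrays, 1.35 ± 0.21 higher (adjusted p 2.46e-05). The adaptor Shc1, which couples receptors to RAS, rose by 2.19 ± 0.27 (adjusted p 7.97e-07) and Rasa2, a GTPase-activating protein that switches RAS off, by 1.59 ± 0.28 (adjusted p 0.000117). Gab1, a docking protein for growth factor receptors, was 6.38 and 5.55 in MYC then HRAS arrays, against 7.98, 9.58 and 9.88 in MYC arrays, a fall of 3.29 ± 0.56 (adjusted p 8.43e-05). The groups did not overlap in any of these 4 genes. Nras, the RAS paralogue measured, was 10.20 and 10.27 in MYC then HRAS arrays, against 10.10, 10.29 and 10.40 in MYC arrays, and did not pass (adjusted p 0.934).

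Of 21 feedback inhibitors of the pathway, 11 rose and 1 fell (median 0.98). Without MYC then HRAS replicate 1 the counts were 8 and 0, and without replicate 2 they were 6 and 1. Spry4, a Sprouty protein that limits receptor signalling to ERK, was 11.19 and 11.02 in MYC then HRAS arrays, against 5.66, 7.01 and 8.12 in MYC arrays, 4.13 ± 0.45 higher (adjusted p 1.42e-07). Errfi1, which binds and inhibits EGF receptors, rose by 3.13 ± 0.37 (adjusted p 4.08e-07) and the ERK phosphatase Dusp5 by 2.62 ± 0.35 (adjusted p 3.06e-06). In all 3 the MYC then HRAS arrays were above every MYC array. Dusp6, another ERK phosphatase, rose by 2.59 ± 0.56 (adjusted p 0.0012). Dusp4 was 3.00 ± 0.80 higher (adjusted p 0.0072), but adjusted p was 0.0884 without MYC then HRAS replicate 1 and 0.0614 without replicate 2. Not every feedback gene moved, and Spry1 (0.11 ± 0.28, adjusted p 0.835) and Spry2 (1.13 ± 0.65, adjusted p 0.249) did not pass.

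AP-1, ETS and EGR factors, the nuclear targets of ERK, rose in 11 of 27 cases and none fell (median 0.60). Fosl1, an AP-1 subunit, was 9.31 and 9.43 in MYC then HRAS arrays, against 5.12, 5.51 and 5.74 in MYC arrays, 3.92 ± 0.23 higher (adjusted p 8.76e-13). Ier3, an early response gene, rose by 4.71 ± 0.37 (adjusted p 3.05e-10), the ETS factor Elk3 by 3.21 ± 0.33 (adjusted p 3.98e-08) and the zinc finger factor Klf6 by 2.52 ± 0.25 (adjusted p 2.97e-08). These 4 genes did not overlap between the groups. The AP-1 subunits Fosl2 (1.33 ± 0.23) and Junb (1.31 ± 0.17) rose by less (largest adjusted p 0.000114). Fos itself was -0.03 ± 0.58 (adjusted p 0.983), Jun 1.00 ± 0.41 (adjusted p 0.0874, and 0.0241 without MYC replicate 6) and Egr1 1.13 ± 0.51 (adjusted p 0.126), and none of these 3 passed.

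Among ligands and receptors of the EGF family 5 of 16 rose and Erbb4 fell (median 0.23). Without MYC replicate 5, 2 members fell. Ereg, the ligand epiregulin, was 10.06 and 10.05 in MYC then HRAS arrays, against 3.98, 4.67 and 5.11 in MYC arrays, a rise of 5.42 ± 0.32 (adjusted p 8.76e-13). The ligand betacellulin, Btc, rose by 4.12 ± 0.39 (adjusted p 1.24e-08) and heparin-binding EGF, Hbegf, by 2.75 ± 0.39 (adjusted p 7e-06). The receptor Erbb4 was 4.81 and 5.01 in MYC then HRAS arrays, against 6.50, 8.22 and 9.13 in MYC arrays, a difference of -2.99 ± 0.45 (adjusted p 1.73e-05). The 3 ligands thus lay above every MYC array and the receptor below every one. Egfr, the main receptor of Ereg and Btc, differed by -1.67 ± 0.82 and did not pass (adjusted p 0.164, and 0.0393 without MYC replicate 5).

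Genes of the urokinase system and its neighbours rose in 11 of 21 cases, and the metalloprotease Mmp16 fell (median 0.93). Without MYC then HRAS replicate 1 the counts were 9 and 1, and without replicate 2 they were 5 and 0. Plau, the urokinase that activates plasmin, was 10.49 and 11.11 in MYC then HRAS arrays, against 5.08, 5.18 and 5.56 in MYC arrays, a rise of 5.56 ± 0.43 (adjusted p 2.35e-10). Its receptor Plaur rose by 4.46 ± 0.43 (adjusted p 1.88e-08) and the metalloprotease inhibitor Timp1 by 4.92 ± 0.36 (adjusted p 7.5e-11). The enzyme, its receptor and the inhibitor did not overlap between the groups. Mmp16, a membrane-bound metalloprotease, was 5.63 and 5.09 in MYC then HRAS arrays, against 6.34, 8.25 and 8.85 in MYC arrays (-2.68 ± 0.60, adjusted p 0.00157, and 0.0567 without MYC then HRAS replicate 2).

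**Figure D3:**
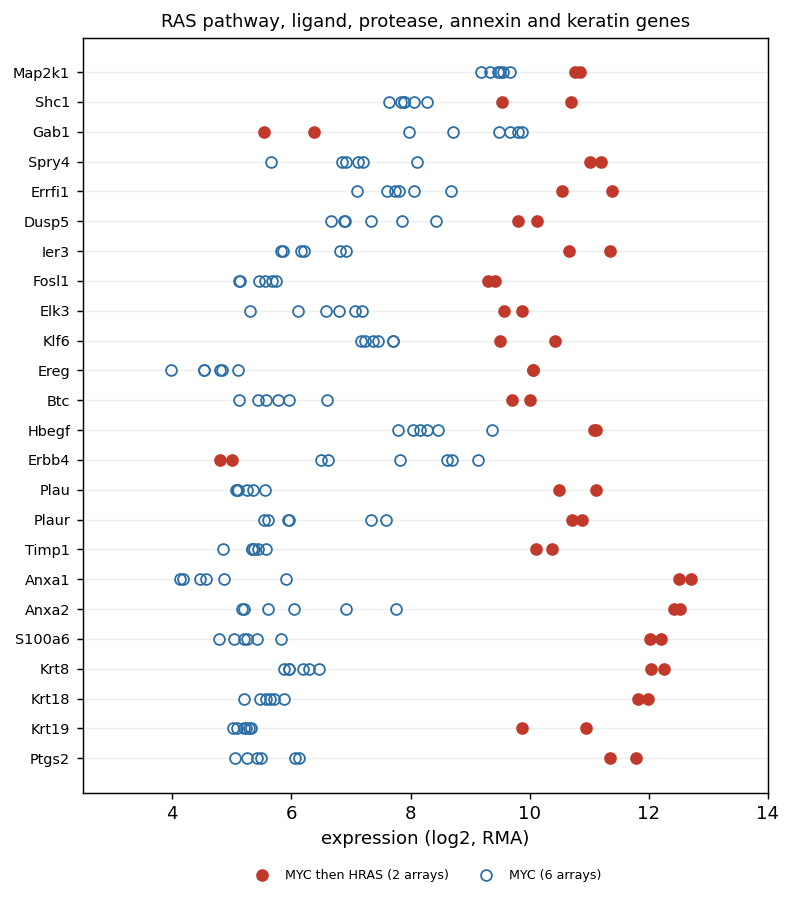
Log2 level (RMA) in each array for 24 genes of the RAS pathway, its ligands, proteases, annexins, S100 proteins and keratins. Filled red points are the 2 MYC then HRAS arrays and open blue points the 6 MYC arrays. Gab1 and Erbb4 are the genes that lie lower in MYC then HRAS, and in no gene do the groups overlap. For Anxa1, Anxa2, S100a6, Krt8 and Krt18 the rule that named them allowed no overlap.

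Annexins and S100 proteins, calcium-dependent proteins of membranes and cytoskeleton, formed the list with the highest share of raised members. This list, like the others, was chosen with earlier results of these data known. Of 20 measured members 17 rose and none fell, with a median of 2.97. Without MYC then HRAS replicate 1, 13 rose and 1 fell, and without replicate 2, 11 rose and none fell. S100a6 was 12.21 and 12.02 in MYC then HRAS arrays, against 4.79, 5.23 and 5.83 in MYC arrays, a rise of 6.86 ± 0.28 (adjusted p 3.01e-16). Anxa2, which brings plasminogen to the cell surface, was 12.43 and 12.52 in MYC then HRAS arrays, against 5.16, 5.83 and 7.76 in MYC arrays, 6.36 ± 0.48 higher (adjusted p 1.92e-10). Both genes were above 12 in each MYC then HRAS array, and Anxa8 rose by 6.30 ± 0.49 (adjusted p 2.5e-10). The groups did not overlap in these genes, as the rule that named the largest rises required.

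Keratins and desmosome genes, which belong to epithelia, rose in 15 of 22 cases and none fell (median 2.08). Krt8 and Krt18 encode the partner keratins of simple epithelia. Krt8 was 12.03 and 12.26 in MYC then HRAS arrays, against 5.87, 6.08 and 6.46 in MYC arrays, and Krt18 was 11.98 and 11.81, against 5.20, 5.60 and 5.88. They rose by 6.02 ± 0.34 (adjusted p 7.1e-13) and 6.32 ± 0.83 (adjusted p 2.49e-06), and Krt19 by 5.21 ± 0.38 (adjusted p 9.49e-11). Perp, a desmosome protein that p53 also induces, was 9.62 and 8.46 in MYC then HRAS arrays, against 5.37, 5.55 and 5.73 in MYC arrays (3.49 ± 0.60, adjusted p 8.77e-05). No group overlap was seen in these 4 genes, though the rule that named Krt8 and Krt18 allowed none.

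Of 34 mesenchymal and matrix genes 9 rose and Zeb1, a repressor of epithelial genes, fell (median 0.29). Sparc, a secreted matrix glycoprotein, was 12.15 and 11.15 in MYC then HRAS arrays, against 5.75, 6.82 and 9.63 in MYC arrays, 4.29 ± 0.75 higher (adjusted p 0.000108). The galectins Lgals3 and Lgals1 rose by 3.79 ± 0.46 and 3.76 ± 0.26 (largest adjusted p 8.72e-07) and the matrix protein Tgfbi by 3.31 ± 0.50 (adjusted p 1.98e-05). Vimentin, Vim, was 13.44 and 13.31 in MYC then HRAS arrays, against 9.16, 11.65 and 12.38 in MYC arrays, a rise of 1.93 ± 0.45 (adjusted p 0.00225, and 0.148 in a fit of only these 2 groups). The Zeb1 value was -1.83, and adjusted p was 0.15 without MYC then HRAS replicate 2, where no member passed as lower. Without MYC replicate 4, 2 passed as lower.

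Of 25 integrins and laminins 9 rose and 1 fell (median 0.52). With either MYC then HRAS replicate left out 5 rose and none fell, and 6 rose without MYC replicate 4 or 6. The integrin chains Itga3 and Itga5 rose by 4.33 ± 0.48 (adjusted p 1.6e-07) and 3.09 ± 0.40 (adjusted p 2.25e-06), and the laminin chain Lamb1 by 3.35 ± 0.52 (adjusted p 2.36e-05). Itgb8, the member that fell, was 4.88 and 4.78 in MYC then HRAS arrays, against 4.22, 9.16 and 9.76 in MYC arrays, which overlap. Its adjusted p was 0.0227, with 0.124 without MYC then HRAS replicate 1 and 0.161 without replicate 2.

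Smooth muscle and contractile genes rose in 8 of 17 cases and none fell (median 0.73), but 4 passed without MYC then HRAS replicate 1 and 3 without replicate 2. Actn1, an actin crosslinker, was 10.14 and 9.84 in MYC then HRAS arrays, against 7.63, 8.11 and 9.06 in MYC arrays, 1.79 ± 0.27 higher (adjusted p 1.48e-05). Acta2, smooth muscle actin, was 6.75 and 5.67 in MYC then HRAS arrays, against 5.72, 6.28 and 6.96 in MYC arrays, and did not pass (adjusted p 0.904). Its difference of -0.13 was 0.41 without MYC then HRAS replicate 2.

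Ptgs2, the inducible cyclooxygenase, was 11.78 and 11.35 in MYC then HRAS arrays, against 5.06, 5.45 and 6.13 in MYC arrays, 6.00 ± 0.49 higher (adjusted p 6.45e-10). For its list, the shares to compare are 9.83% higher and 10.6% lower over all genes. Of 17 prostaglandin genes 2 rose and 1 fell, and without MYC then HRAS replicate 2, 1 rose and none fell. Of 30 cytokine and chemokine genes 10 rose and none fell (median 0.36), and Il5ra rose most. Without MYC then HRAS replicate 2, 3 rose.

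The neuronal list went the other way. Of 32 measured members 13 fell and 1 rose, with a median of -1.05. Without MYC then HRAS replicate 1, 6 fell and 1 rose, and without replicate 2, 6 fell and none rose. Besides Gpm6a and Map2, the neural zinc finger factor Myt1 fell by 3.36 ± 0.50 (adjusted p 1.61e-05), at 5.31 and 5.27 in MYC then HRAS arrays, against 7.89, 8.83 and 9.20 in MYC arrays. The neuronal RNA-binding protein Elavl4 was 4.57 and 4.59 in MYC then HRAS arrays, against 6.81 to 8.55 in MYC arrays (-3.01, adjusted p 4.82e-05). Neuronal tubulin, Tubb3, fell by 2.05 ± 0.60 (adjusted p 0.0143), and by 1.54 without MYC then HRAS replicate 1 (adjusted p 0.235). The synaptic vesicle protein Syp differed by -2.53 ± 0.72 (adjusted p 0.012), with adjusted p 0.115 without MYC then HRAS replicate 1 and 0.0843 without replicate 2. In each of these 4 genes both MYC then HRAS arrays lay below all MYC arrays. Nefl, the light neurofilament chain, was the member that rose (4.51 ± 0.95, adjusted p 0.000884, and 0.0689 without MYC then HRAS replicate 2), at 9.94 and 11.74 in MYC then HRAS arrays, against 4.47, 5.57 and 9.53 in MYC arrays.

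Of 21 proneural and Dlx factors 3 fell and none rose (median -0.81), which is near the 10.6% that were lower over all genes. These 3 were the POU factors Pou3f4 (-2.88 ± 0.62, adjusted p 0.00112, and 0.0593 in a fit of only these 2 groups) and Pou3f2 (-2.05 ± 0.35, adjusted p 8.13e-05) and Sox4. Sox4, which promotes neuronal differentiation, was 8.38 and 9.0 in MYC then HRAS arrays, against 10.29, 11.19 and 11.42 in MYC arrays (adjusted p 2.19e-05). Sox2, the stem cell factor, did not pass (adjusted p 0.271). Its levels of 10.93 and 11.31 in MYC then HRAS arrays lay among those of MYC replicates 1, 2, 3 and 6, between 10.74 and 11.58, and the difference of 1.75 was -0.07 without MYC replicates 4 and 5. Of 23 neural stem and radial glia genes 8 fell and Id1, an inhibitor of differentiation factors, rose (median -0.79). Leaving out an array gave between 1 and 12 lower members, the lowest without MYC then HRAS replicate 2 and the highest without MYC replicate 5. Msi1, an RNA-binding protein of neural progenitors, was 6.03 and 5.77 in MYC then HRAS arrays, against 7.37, 8.05 and 8.93 in MYC arrays, a difference of -2.22 ± 0.36 (adjusted p 5.18e-05). Id1 was 10.20 and 10.15 in MYC then HRAS arrays, against 6.73, 7.45 and 7.73 in MYC arrays, 2.88 ± 0.33 higher (adjusted p 3.43e-07). Nes, an intermediate filament of progenitors, did not pass (0.13 ± 0.34, adjusted p 0.832).

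Counts of the glial lists moved with single arrays. Of 18 astrocyte genes 3 fell and 1 rose (median -0.75), and of 20 oligodendrocyte lineage genes 5 fell and none rose (median -1.65). Among all genes, 10.6% were lower and 9.83% higher. Without MYC replicate 4, 6 astrocyte and 9 oligodendrocyte genes fell, and without MYC then HRAS replicate 2, 2 and 0. The oligodendrocyte count was 1 without MYC then HRAS replicate 1, 2 to 3 without MYC replicate 1, 2 or 3, and 15 without both MYC replicates 4 and 5. The glutamate transporter Slc1a2 was 5.90 and 5.67 in MYC then HRAS arrays, against 6.78, 7.52 and 8.30 in MYC arrays (-1.67 ± 0.32, adjusted p 0.00035). Olig2, a factor of oligodendrocyte progenitors and many gliomas, was 6.60 and 5.14 in MYC then HRAS arrays, against 5.02, 9.80 and 10.57 in MYC arrays. The difference of -2.59 ± 1.36 missed the threshold (adjusted p 0.197), which it met once MYC replicates 4 and 5 were left out (adjusted p 0.00578). Gfap, the astrocyte filament, was 6.96 and 5.38 in MYC then HRAS arrays, against 4.71, 5.34 and 9.08 in MYC arrays, and did not pass (adjusted p 0.804).

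**Figure D4:**
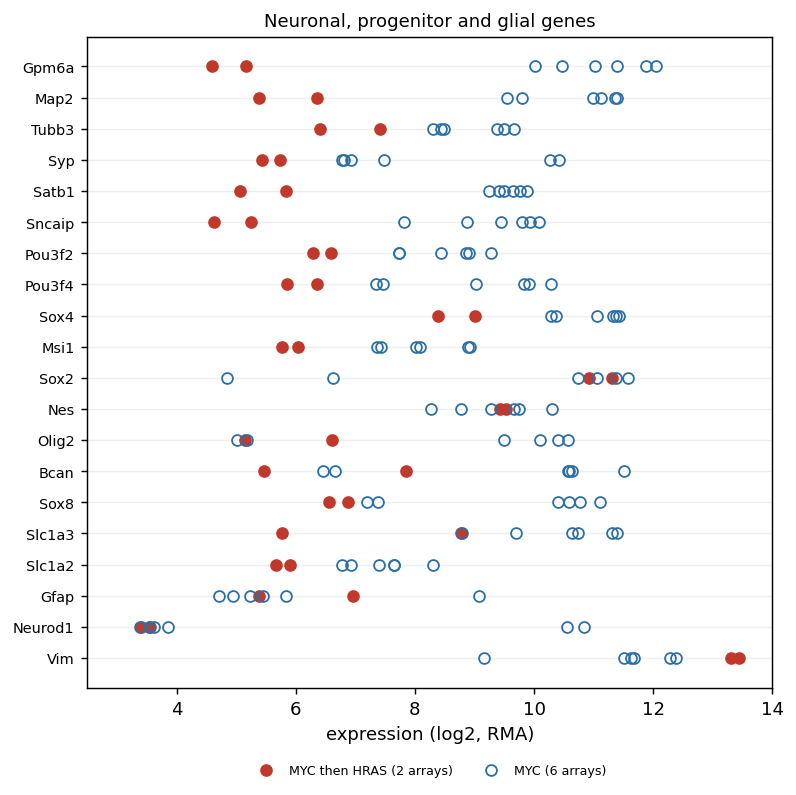
Log2 level (RMA) in each array for 20 neuronal, progenitor and glial genes. Filled red points are the 2 MYC then HRAS arrays and open blue points the 6 MYC arrays. From Gpm6a to Msi1 the groups do not overlap, whereas Sox2, Nes, Olig2, Gfap and Neurod1 overlap, and Vim lies higher in MYC then HRAS. For Gpm6a, Map2, Satb1 and Sncaip the rule that named them allowed no overlap.

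Among 34 axon guidance genes 5 rose and 7 fell (3 and 6 without MYC then HRAS replicate 1, 3 and 3 without replicate 2). The ephrin receptor Epha2 was 11.11 and 10.95 in MYC then HRAS arrays, against 5.24, 5.42 and 5.82 in MYC arrays, a rise of 5.56 ± 0.30 (adjusted p 2.32e-13), while its relative Epha7 fell by 2.33 ± 0.51 (adjusted p 0.00128, and 0.0518 in a fit of only these 2 groups). The netrin receptor Unc5b rose by 3.42 ± 0.21 (adjusted p 2.92e-12). Beside this list and the next, 9.83% of all genes were higher and 10.6% lower. Of 20 Notch pathway genes 5 rose and 4 fell (3 and 5 without MYC then HRAS replicate 1, 4 and 1 without replicate 2, and 6 and 8 without MYC replicate 5). The ligand Jag1 rose by 2.20 ± 0.46 (adjusted p 0.000788) and the ligand Dll1 fell by 2.80 ± 0.53 (adjusted p 0.000307). For both ligands, as for the 3 receptors, the groups did not overlap.

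Of 29 WNT pathway genes 5 were higher and 8 lower (3 to 5 higher and 4 to 8 lower when single arrays were left out, the fewest without MYC then HRAS replicate 2). The ligand Wnt7b was 8.93 and 9.998 in MYC then HRAS arrays, against 5.19, 6.23 and 6.78 in MYC arrays (3.32 ± 0.40 higher, adjusted p 5.51e-07), and the receptor Fzd1 rose by 3.08 ± 0.45 (adjusted p 1.26e-05). The secreted antagonist Sfrp2 was 5.71 and 5.25 in MYC then HRAS arrays, against 6.95, 9.77 and 10.30 in MYC arrays (-3.59 ± 0.67, adjusted p 0.000247), and the R-spondin receptor Lgr5 fell by 3.04 ± 0.42 (adjusted p 4.5e-06). Sonic hedgehog genes fell in 5 of 13 cases and none rose (median -0.40), with 3 lower without MYC then HRAS replicate 1 and 2 without replicate 2. Ptch1, the hedgehog receptor and a target of the pathway, was 8.15 and 8.18 in MYC then HRAS arrays, against 9.15, 9.33 and 9.78 in MYC arrays (-1.25 ± 0.20, adjusted p 3.8e-05), and the coreceptor Boc fell by 1.66 ± 0.30 (adjusted p 0.00021). The pathway target Gli1 did not pass (-0.11 ± 0.18, adjusted p 0.739). Beside the counts of both pathways, 9.83% of all genes were higher and 10.6% lower.

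In the TGF-beta and BMP family 11 of 33 genes rose and 5 fell (median 0.09), with 8 and 2 without MYC then HRAS replicate 1 and 9 and 1 without replicate 2. The ligand Tgfb1 was 9.10 and 9.08 in MYC then HRAS arrays, against 5.39, 5.50 and 5.95 in MYC arrays (3.53 ± 0.38 higher, adjusted p 9.09e-08). Ltbp1, which tethers latent TGF-beta to matrix, rose by 3.08 ± 0.54 (adjusted p 0.000131), the activin antagonist Fst by 3.30 ± 0.65 (adjusted p 0.000442) and the ligand Bmp2 by 3.81 ± 0.55 (adjusted p 8.8e-06). The groups did not overlap in these 4 genes.

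Hypoxia and glycolysis genes rose in 15 of 22 cases and 1 fell, with a median of 0.97, though 8 passed as higher without MYC then HRAS replicate 1. The glucose transporter Slc2a1 was 11.78 and 11.70 in MYC then HRAS arrays, against 7.60, 8.45 and 9.33 in MYC arrays, 3.25 ± 0.36 higher (adjusted p 1.97e-07). Ndrg1, a stress-induced growth regulator, rose by 3.63 ± 0.62 (adjusted p 8.03e-05) and Egln3, an oxygen sensor of the HIF pathway, by 2.94 ± 0.43 (adjusted p 1.04e-05). Of the glycolytic enzymes, the aldolase Aldoa rose by 1.01 ± 0.17 and the lactate dehydrogenase Ldha by 0.74 ± 0.17 (largest adjusted p 0.00162). In a fit of only these 2 groups Ldha had adjusted p 0.08. Slc2a1, Ndrg1 and Egln3 lay above all MYC arrays. Retinoid genes rose in 5 of 15 cases and none fell (6 and 0 without MYC then HRAS replicate 1, 3 and 0 without replicate 2). Adh7, an alcohol dehydrogenase that oxidises retinol, was 10.19 and 10.83 in MYC then HRAS arrays, against 4.82, 4.95 and 5.31 in MYC arrays (5.51 ± 0.57 higher, adjusted p 4.98e-08). The retinoic acid-binding protein Crabp1 was 12.14 and 13.43 in MYC then HRAS arrays, against 6.25, 6.90 and 10.29 in MYC arrays (5.34 ± 0.69 higher, adjusted p 1.99e-06).

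Of 32 MYC and ribosome biogenesis genes 2 rose and none fell (1 rose without MYC then HRAS replicate 2, and 1 fell without MYC replicate 6), with a median of 0.01, and of 26 cell cycle and replication genes 1 rose and none fell, with a median of -0.00. That gene, Rrm2, had adjusted p 0.0374 and lost its call without either MYC then HRAS replicate (0.143 and 0.24) and without MYC replicate 2 (0.0604) or 6 (0.0672), and 3 cell cycle genes passed as lower without MYC replicate 6. Mouse Myc was 7.46 and 7.76 in MYC then HRAS arrays, against 6.12, 7.04 and 8.23 in MYC arrays, and did not pass (0.60 ± 0.46, adjusted p 0.401). These values do not check the MYC label, and the level of the added MYC was not analysed. Mki67, a marker of dividing cells, was 9.67 and 9.21 in MYC then HRAS arrays, against 9.43, 10.45 and 10.74 in MYC arrays, and did not pass (adjusted p 0.109, and 0.0388 without MYC replicate 6). Among 13 members of the MYC family and its MAX network 2 rose and 3 fell, and none rose without MYC then HRAS replicate 2. Mycl fell by 1.10 ± 0.24 (adjusted p 0.0014) and the MAX-binding repressor Mga by 0.87 ± 0.19 (adjusted p 0.00144). Beside the counts of these lists, 9.83% of all genes were higher and 10.6% lower.

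Regulators of cell cycle entry changed on both sides. Of 17 cyclins, kinases and inhibitors 4 rose and 3 fell (9.83% and 10.6% over all genes, also for the p53 targets below). Cdkn2b, an inhibitor of CDK4 and CDK6, was 10.39 and 9.10 in MYC then HRAS arrays, against 6.10, 6.55 and 6.98 in MYC arrays (3.20 ± 0.40 higher, adjusted p 1.13e-06). Its neighbour Cdkn2a, which encodes an inhibitor of the same kinases and the p53 activator ARF, was 10.69 and 10.16 in MYC then HRAS arrays, against 8.44, 9.04 and 9.23 in MYC arrays (1.46 ± 0.21 higher, adjusted p 8.24e-06). Cyclin D1, Ccnd1, which these inhibitors oppose, rose by 1.67 ± 0.30 (adjusted p 0.000185). The inhibitors and the cyclin were thus all above every MYC array, while the inhibitor Cdkn1b fell by 1.44 ± 0.26 (adjusted p 0.000144). In these p53-deficient cells, 5 of 19 genes known as p53 targets rose and 3 fell (3 and 3 without MYC then HRAS replicate 2). Sesn1, a stress response gene, was 6.85 and 6.66 in MYC then HRAS arrays, against 8.54, 9.29 and 10.33 in MYC arrays (-2.59 ± 0.29, adjusted p 1.84e-07), and the death receptor Tnfrsf10b rose by 2.19 ± 0.41 (adjusted p 0.000239).

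SWI/SNF subunits, which build a chromatin remodelling complex, fell in 13 of 26 cases and none rose (median -0.46), with 8 lower without MYC then HRAS replicate 1, 10 without replicate 2 and 10 when arrays were centred on their medians. Bcl7a was 7.65 and 7.58 in MYC then HRAS arrays, against 9.46, 9.97 and 10.24 in MYC arrays (-2.27 ± 0.26, adjusted p 2.5e-07). The ATPase Smarca2 fell by 2.16 ± 0.33 (adjusted p 1.89e-05) and Smarcd3, a subunit of neural and muscle forms, by 1.66 ± 0.34 (adjusted p 0.000739). Smarcb1, the subunit lost in human atypical teratoid/rhabdoid tumours, was 10.21 and 9.98 in MYC then HRAS arrays, against 10.16, 10.42 and 10.66 in MYC arrays, and did not pass (-0.33 ± 0.14, adjusted p 0.107, and -0.42 with adjusted p 0.0207 after another quantile normalization). Of 25 Polycomb subunits 1 rose and 6 fell, a split that became 4 and 3 when arrays were centred, and 2 fell without MYC then HRAS replicate 2. Phc1 fell by 1.44 ± 0.23 (adjusted p 4.42e-05), while Ezh2 (adjusted p 0.299) and Bmi1 (adjusted p 0.668) did not pass. Hmga2, a chromatin protein of embryonic cells, was 9.28 and 9.55 in MYC then HRAS arrays, against 5.81, 6.01 and 6.38 in MYC arrays (3.37 ± 0.22 higher, adjusted p 7.34e-12).

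**Figure D5:**
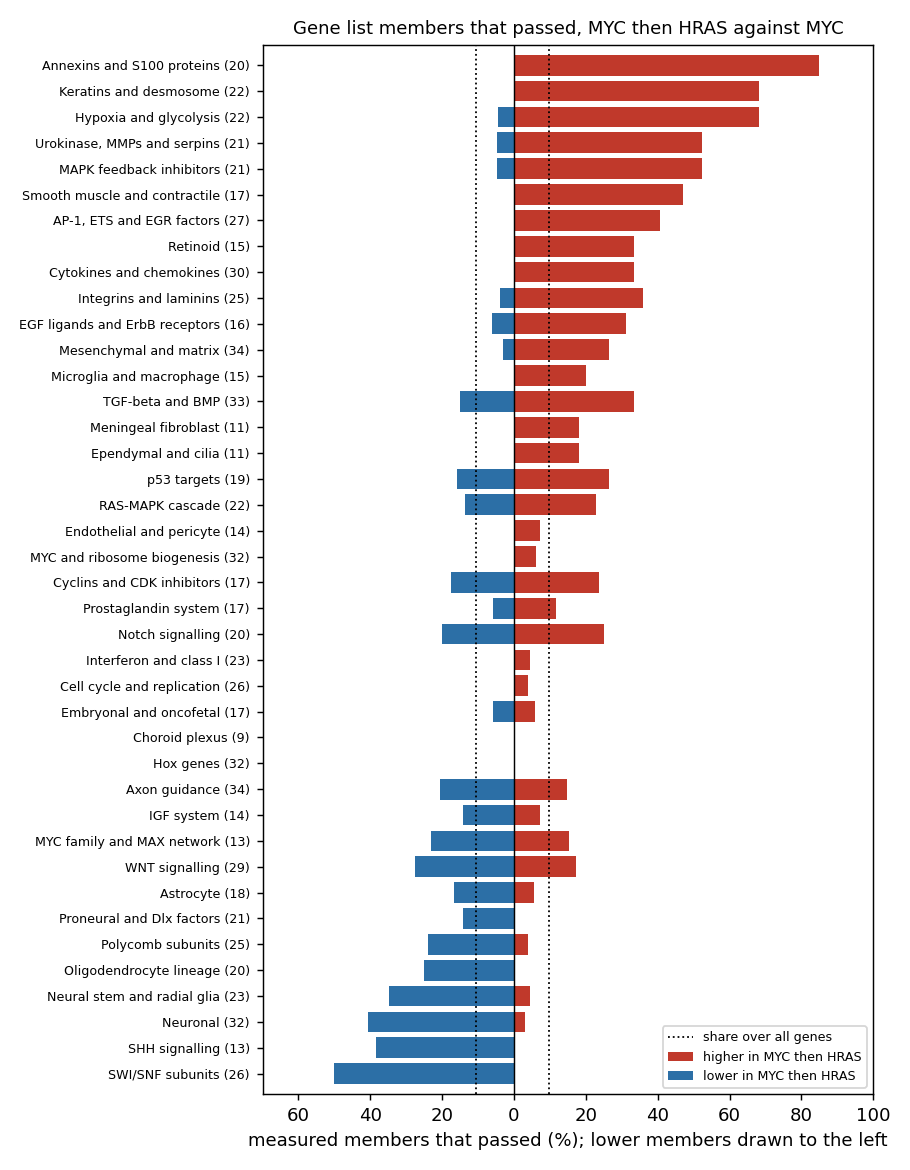
Share of measured members of each gene list that passed as higher (red, right) or lower (blue, left) in MYC then HRAS against MYC, with the number measured in brackets. Dotted lines mark the shares over all genes, 9.83% higher and 10.6% lower. Annexins and S100 proteins show the highest share of raised members and SWI/SNF subunits the highest share of lowered ones. The lists were chosen with earlier results of these data known.

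Lists of other brain cell types were examined beside these results. Over all genes, 9.83% passed as higher. Of 15 microglial and macrophage genes 3 rose, Cd68, Adgre1 (adjusted p 0.0327, and 0.293 without MYC then HRAS replicate 2) and Ptprc. Of the 5 defining markers among them 1 passed, Ptprc (4.98 and 5.35 in MYC then HRAS arrays, against 4.25 to 4.80 in MYC arrays), which lost its call without MYC then HRAS replicate 2 (adjusted p 0.36). The mean of these 5 markers was 5.12 and 5.00 in MYC then HRAS arrays, against 4.68 to 4.89 in MYC arrays. Cd68, a lysosomal protein high in macrophages, rose by 3.67 ± 0.67 (adjusted p 0.000202), at 9.11 and 10.20 in MYC then HRAS arrays, against 5.62, 5.87 and 6.79 in MYC arrays, whereas Aif1, Cx3cr1, Csf1r and C1qa did not pass. Of the 14 measured genes of the endothelial and pericyte list Flt1, a receptor for VEGF, rose (7.56 and 6.66 in MYC then HRAS arrays, against 5.46, 5.61 and 5.74 in MYC arrays, adjusted p 0.0186, and 0.297 without MYC then HRAS replicate 1). In 6 of the 14 both MYC then HRAS arrays lay above all MYC arrays, as in 14.9% of all genes. The defining markers Pecam1, Cdh5, Cldn5, Pdgfrb and Rgs5 did not pass. Of 4 meningeal fibroblast markers Col3a1 passed (8.60 and 8.60 in MYC then HRAS arrays, against 5.72, 5.95 and 7.09 in MYC arrays), while Col1a1, Dcn and Lum did not. The mean of these 4 markers was 5.47 and 5.57 in MYC then HRAS arrays, against 4.80 to 5.13 in MYC arrays. Foxc1, a factor of meninges, also rose (adjusted p 0.00343, and 0.0777 without MYC then HRAS replicate 1). So did the cilia genes Rsph1 (adjusted p 0.028, and 0.296 without MYC then HRAS replicate 1) and Tekt1 (adjusted p 0.00589, and 0.101 without it) and the erythroid anion exchanger Slc4a1 (adjusted p 0.00109, and 0.393 without MYC then HRAS replicate 2). The part of such cells in the results was not tested. Of the X and Y linked genes Kdm5d passed, at 4.17 and 3.89 in MYC then HRAS arrays, against 4.29, 7.50 and 8.23 in MYC arrays (-2.55 ± 0.77, adjusted p 0.0184, and 0.0945 and 0.165 without 1 or the other MYC then HRAS array). Uty was 3.90 and 3.48 in MYC then HRAS arrays, against 3.08, 7.32 and 7.85 in MYC arrays (adjusted p 0.0509, and 0.00371 without MYC replicate 5). Xist was 8.33 and 8.38 in MYC then HRAS arrays, against 3.79, 6.09 and 11.05 in MYC arrays, and Eif2s3y, on the Y chromosome, was 3.98 and 3.82 in MYC then HRAS arrays, against 3.81, 6.89 and 8.57 in MYC arrays. The sex of the cells is not in the labels, and its part in the differences was not tested.

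The 2 MYC then HRAS arrays also differed from each other. Of 839 list members 18 differed by 2 log2 units or more between them, 15 of them higher in replicate 1. Those named here were picked by that difference after the values were seen. Fabp7, a fatty acid-binding protein of radial glia, was 10.89 in replicate 1 and 4.52 in replicate 2 of MYC then HRAS, against 4.54, 10.98 and 12.23 in MYC arrays. The glutamate transporter Slc1a3 was 8.77 and 5.77 in MYC then HRAS arrays, against 8.78, 10.68 and 11.39 in MYC arrays, and its fall of 3.15 ± 0.76 (adjusted p 0.00343) was 1.65 without replicate 2 (adjusted p 0.32). Tnc, a matrix glycoprotein of radial glia and gliomas, was 9.31 and 6.08 in MYC then HRAS arrays, against 4.74, 6.23 and 7.51 in MYC arrays, and passed without replicate 2 (adjusted p 0.0209) but not with it (adjusted p 0.149). The tight junction protein Cldn6 was 11.72 and 7.99 in MYC then HRAS arrays, against 5.01, 5.28 and 5.42 in MYC arrays, and its rise of 4.61 lost its call without replicate 1 (2.75, adjusted p 0.121). Il1rn, an antagonist of interleukin signalling, was 5.02 and 8.79 in MYC then HRAS arrays, against 4.31, 4.43 and 4.62 in MYC arrays, and did not pass without replicate 2 (adjusted p 0.542). Fabp7, Slc1a3, Tnc and Cldn6 were thus higher in replicate 1, and Il1rn was higher in replicate 2. Of the other neural stem markers, Sox2 (10.93 and 11.31) and Nes (9.43 and 9.52) were not higher in replicate 1. Msi1 was 6.03 and 5.77.

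The last comparison asked where HRAS added to established MYC tumour cells gave other levels than HRAS and MYC given together. In this direct test 22 of 19938 genes passed (0.11%), 14 higher (0.0702%) and 8 lower (0.0401%) in MYC then HRAS, and 1470 had an unadjusted p under 0.05. The median standard error over genes was 0.19 log2 units here and against MYC. A miss does not show that levels were alike. Of the genes raised over MYC and described above, some are given here. The difference from HRAS+MYC was 0.24 ± 0.49 for Anxa1, -0.41 ± 0.22 for Fosl1, 0.24 ± 0.44 for Spry4, -0.77 ± 0.31 for Ereg and 0.58 ± 0.42 for Plau. Among the genes most lowered, it was 0.37 ± 0.93 for Gpm6a and 0.68 ± 0.74 for Map2, and none of these 7 passed (lowest adjusted p 0.503). Other raised genes lay farther from HRAS+MYC without passing. The difference was -1.51 ± 0.38 for Krt19 (adjusted p 0.119), -1.13 ± 0.48 for Ptgs2 (adjusted p 0.546) and 0.93 ± 0.48 for Anxa8 (adjusted p 0.713).

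Of the 22 genes, 2 kept their call whichever array was left out. Upb1, an enzyme of pyrimidine breakdown, was 6.87 and 6.77 in MYC then HRAS arrays, against 5.04, 5.42 and 5.62 (lowest, median and highest) in the 7 HRAS+MYC arrays and 4.95, 4.98 and 5.20 in MYC arrays. It was 1.48 ± 0.15 above HRAS+MYC (adjusted p 2.45e-06). Marveld2, a tight junction protein, was 4.47 and 4.55 in MYC then HRAS arrays, against 5.57, 6.07 and 7.25 in HRAS+MYC arrays and 4.05, 4.29 and 4.54 in MYC arrays, a difference from HRAS+MYC of -1.80 ± 0.24 (adjusted p 0.000615). With the MYC then HRAS arrays averaged into 1 its adjusted p was 0.0539, and in a fit of only these 2 groups 0.123. Upb1 thus stood above both other groups, and Marveld2 overlapped the highest MYC array. Pcdh7, a protocadherin, was 6.47 and 6.90 in MYC then HRAS arrays, against 9.31, 10.23 and 10.47 in HRAS+MYC arrays and 4.82, 6.23 and 7.91 in MYC arrays. The difference from HRAS+MYC was -3.40 ± 0.48 (adjusted p 0.000898, and 0.0551 without MYC then HRAS replicate 1). Padi4, which converts arginine to citrulline in histones, was 8.35 and 7.95 in MYC then HRAS arrays, against 4.65, 5.83 and 7.35 in HRAS+MYC arrays. It was 2.48 ± 0.41 higher (adjusted p 0.00587, and 0.208 without MYC then HRAS replicate 1). The nuclear receptor Nr0b1 was 4.72 and 4.38 in MYC then HRAS arrays, against 4.76, 7.29 and 8.89 in HRAS+MYC arrays (-2.60, adjusted p 0.0276, which became 0.222 when MYC then HRAS replicate 1 was left out and 0.34 when replicate 2 was).

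The gene lists held 839 of the 19938 genes tested and 2 of the 22 that differed from HRAS+MYC. Mfng, a glycosyltransferase that modifies Notch, was 8.54 and 8.01 in MYC then HRAS arrays, against 5.78, 6.37 and 6.97 in HRAS+MYC arrays and 8.44, 9.55 and 10.51 in MYC arrays. It was 1.97 ± 0.36 above HRAS+MYC (adjusted p 0.0172, and 0.33 without MYC then HRAS replicate 1). Mga was 8.10 and 8.11 in MYC then HRAS arrays, against 8.78, 9.06 and 9.43 in HRAS+MYC arrays and 8.57, 9.02 and 9.32 in MYC arrays, a difference from HRAS+MYC of -0.94 ± 0.19 (adjusted p 0.029, and 0.306 without MYC then HRAS replicate 1). Mfng thus lay above the HRAS+MYC arrays and overlapped the lowest MYC array, and Mga lay below both groups. Padi4, Mfng and Mga each lost the call against HRAS+MYC whichever MYC then HRAS replicate was left out.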

How the data were processed

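The deposited values are log2 expression values that the authors made with RMA in Affymetrix Expression Console 1.0 from Affymetrix Mouse Gene 1.0 ST arrays, per the submitters' processing notes. RMA includes quantile normalization, so an overall change in RNA per cell would not be seen. The number of arrays limits the precision. The table held 35557 probe sets: the annotation gave 21789 of them 1 symbol and 1621 several, and did not list 12147. The probe set with the highest mean over all 32 arrays stood for each of 19938 genes. One linear model with 8 group means was fitted to all arrays with limma 3.58.1 in R 4.3.3 (lmFit and eBayes, 2-sided, Benjamini-Hochberg adjustment over all genes, threshold 0.05), without a replicate block. All adjusted p-values are of this kind.

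Members and gene lists were chosen with earlier results of these data known. Named genes are the 12 largest rises and 12 largest falls against MYC without overlap, up to 4 of the largest changes in each list, the 6 largest differences in each direction from HRAS+MYC, and 12 histology markers regardless of value. Not all are described. In simulated data with 200 of 19938 genes changed, for MYC then HRAS against MYC, the fit recovered 23.9%, 65.7% and 93.9% of changes of 0.5, 1 and 2 log2 units, and 2.4% of calls were unchanged genes. In the data 4074 genes passed against MYC and 22 against HRAS+MYC, so these rates need not hold for either comparison. Alternatives changed the normalization, the probe set rule, a filter on dim genes, the variance model, the arrays and the block.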

Additional observations from a re-analysis of the deposited data

Results flagged for a closer look

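In 12 cases an array stood apart from the others of its group for a named gene by Dixon's test, which chance alone flags in about 1 of 20 groups. The test covered the MYC arrays of all 179 named genes. It also covered the HRAS+MYC arrays of the genes named for the largest differences from that group. Chance alone would thus give a count of this order. MYC replicate 6 was highest in Pla2g7 (7.60, against 4.26 to 4.75 in the other 5 MYC arrays), Dll4 (6.66, against 5.54 to 5.91), Cd68 (6.79, against 5.62 to 6.03) and Gfap (9.08, against 4.71 to 5.83). MYC replicate 4 was highest in Itga3 (7.50, against 5.22 to 5.75) and Crabp1 (10.29, against 6.25 to 7.63) and lowest in Lgals1 (8.28, against 9.42 to 9.88) and Vim (9.16, against 11.51 to 12.38). MYC replicate 1 was lowest in Timp1 (4.86, against 5.34 to 5.58) and Igfbp2 (9.41, against 9.92 to 10.19), and MYC replicate 5 highest in Col3a1 (7.09, against 5.72 to 6.16). In the HRAS+MYC group replicate 1 was highest in Slfn3 (6.20, against 4.91 to 5.46 in the other 6).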

How the results depend on the processing

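With both MYC then HRAS arrays averaged into 1, 993 genes were higher and 924 lower than in MYC, 167 list members passed, and 3 genes were higher and 0 lower than in HRAS+MYC (limma, with 244 lower at an unadjusted p under 0.05). A fit of only these 2 groups gave 1230 higher and 1137 lower. Leaving out single arrays gave 966 to 2028 higher and 934 to 2258 lower genes and 167 to 313 list members, and 10 to 25 higher and 3 to 24 lower genes than HRAS+MYC. The samples with shared replicate numbers did not deviate together, and with the replicate block 1741 genes were higher and 1919 lower than in MYC, and 12 and 10 than in HRAS+MYC. The position of the MYC then HRAS arrays, in alternatives chosen after seeing the data, stayed between 91.96% and 93.66%. The difference from MYC changed sign in Sox2 (-0.068), Nes (-0.27) and Gfap (-0.23) without MYC replicates 4 and 5, and without single arrays in Nes (-0.080 to 0.33), Gfap (-0.50 to 1.09) and Acta2 (-0.67 to 0.41), none of which passed in any of these fits. The other alternatives kept the counts over all genes within 1.5 times, but not those of single lists: raised cytokine genes were 3 with a filter on dim genes, raised integrins and laminins 5 and lowered neural stem genes 4 with the replicate block, and lowered astrocyte genes 10 without MYC replicates 4 and 5. With averaged MYC then HRAS arrays, 6 feedback inhibitors and 11 annexins and S100 proteins rose and 6 neuronal and 8 SWI/SNF genes fell. With 2 MYC then HRAS arrays, differences under about 1 log2 unit were often not detected in the simulated data.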
